A study of Mus musculus with 7 samples.

Results

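The lecticans and their partners in brain extracellular matrix were examined in tumors of a mouse glioma model, as 10 genes of 19257 in the deposited expression table. The members were taken by gene symbol, namely the lecticans Acan, Bcan, Ncan and Vcan, the link protein genes Hapln1, Hapln2 and Hapln4, the tenascin genes Tnr and Tnc, and the receptor phosphatase gene Ptprz1. Each symbol matched 1 entry, and all 10 passed the filter on low values, a mean normalized count of at least 10 over the 7 libraries. A normalized count here was the number of reads on a gene divided by a size factor for the library.

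Bulk RNA-Seq had been carried out on tumors collected at the end stage of disease under fluorescence guidance, 3 from the 3xCR group (replicates 2, 3 and 4) and 4 from the GPC6 group (replicates 1 to 4). In both groups, progenitors lining the lateral ventricles of mouse embryos had been electroporated in utero with Cas9 and guides against tumor suppressor genes, on CD-1 and C57BL/6 backgrounds, and a piggyBac transposon labelled cells with GFP. The labels called the 3xCR group the control genotype. The GPC6 group carried in addition overexpressed GPC6, a glypican (a heparan sulfate proteoglycan held at the cell surface) linked to synapse formation, again from a piggyBac transposon. Neither the promoter that drove GPC6, nor the sex, strain or age of each sampled animal, nor a non-tumor brain library was among the sources used here. Each tissue piece held tumor cells together with resident brain cells, so that fewer cells of a type and less RNA per cell cannot be told apart in these values.

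In the adult brain, lecticans are chondroitin sulfate proteoglycans that bind the long sugar hyaluronan at their N-terminal end and tenascins at their C-terminal end, while link proteins clamp the bond between lectican and hyaluronan. The lattice formed in this way condenses into perineuronal nets around the soma and proximal dendrites of certain neurons, above all fast-spiking interneurons positive for parvalbumin, and in a looser form it fills the neuropil. Aggrecan (Acan) is a hallmark of nets, whereas brevican (Bcan), neurocan (Ncan), versican (Vcan) and Ptprz1 are made in large part by astrocytes and cells of the oligodendrocyte lineage, and Bcan, Tnc and Ptprz1 are well known from gliomas.

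The promoter sequences of 5 members are shown because Bcan, Ncan, Vcan, Tnr and Ptprz1 went up and down together over the libraries, as described further on. Each run is the 250 bases upstream of the RefSeq start of the gene on build GRCm38.p6, written 5′ to 3′ along the strand of the gene, and the capitals mark matches on either strand to the motifs named in the next paragraph.
Bcan (chr3:88000357-88000606, minus strand): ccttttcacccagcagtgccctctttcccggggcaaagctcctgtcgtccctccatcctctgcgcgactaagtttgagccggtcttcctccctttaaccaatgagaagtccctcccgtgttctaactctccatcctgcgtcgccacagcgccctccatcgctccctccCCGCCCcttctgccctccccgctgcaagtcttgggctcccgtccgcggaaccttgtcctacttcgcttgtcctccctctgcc
Ncan (chr8:70120845-70121094, minus strand): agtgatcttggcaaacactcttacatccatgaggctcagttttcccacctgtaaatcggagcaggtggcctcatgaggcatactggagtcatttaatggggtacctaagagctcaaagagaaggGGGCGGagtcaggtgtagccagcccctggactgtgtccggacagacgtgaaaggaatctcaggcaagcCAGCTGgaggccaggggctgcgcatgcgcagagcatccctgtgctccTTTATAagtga
Vcan (chr13:89742513-89742762, minus strand): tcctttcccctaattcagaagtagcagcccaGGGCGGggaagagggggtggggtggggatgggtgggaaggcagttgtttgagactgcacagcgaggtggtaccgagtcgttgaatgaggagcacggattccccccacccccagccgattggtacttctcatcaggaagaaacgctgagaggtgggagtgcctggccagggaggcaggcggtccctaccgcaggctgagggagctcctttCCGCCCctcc
Tnr (chr1:159523519-159523768, plus strand): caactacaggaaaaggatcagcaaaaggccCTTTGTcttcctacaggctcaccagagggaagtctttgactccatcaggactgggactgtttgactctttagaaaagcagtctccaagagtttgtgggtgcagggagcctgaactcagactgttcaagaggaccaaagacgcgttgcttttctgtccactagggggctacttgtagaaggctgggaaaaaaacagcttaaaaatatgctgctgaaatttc
Ptprz1 (chr6:22875252-22875501, plus strand): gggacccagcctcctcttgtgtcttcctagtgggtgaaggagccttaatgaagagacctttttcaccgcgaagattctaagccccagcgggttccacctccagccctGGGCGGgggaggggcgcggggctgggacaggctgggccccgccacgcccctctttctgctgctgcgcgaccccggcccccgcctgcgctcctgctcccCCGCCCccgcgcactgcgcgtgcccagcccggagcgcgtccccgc

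RefSeq promoters were matched for 9 of the 10 members, and Hapln4 was not matched. The GC box (GGGCGG), a site for Sp family factors, was found upstream of 6 of these 9 members and in 32.7% of the 32851 promoter windows of the same length. Among the 5 genes shown it was present in Bcan, Ncan, Vcan and Ptprz1 and not in Tnr. The TATA box (TATAAA) was found in Ncan and Tnc, and in 12.4% of all windows. The E-box (CAGCTG), a site for many basic helix-loop-helix factors, was found in Acan, Hapln2 and Ncan, and in 4271 of the 32851 windows. The SOX motif (ACAAAG or otherwise ACAATG) was found in Tnr and Hapln2, and in 25.2% of all windows. All motifs were searched on both strands, and the capitals of different motifs do not overlap in the 5 sequences shown. The 5 promoters ranged widely in base composition, from a GC content of 46.8% in Tnr to 71.6% in Ptprz1, around a median of 52.4% over all windows. No motif was common to the 5, and such a match describes letters only.

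Libraries held 7197692 to 18879762 reads on genes, and depth did not separate the groups (two-sided exact permutation test, p = 0.457). Gpc6, the overexpressed gene, had 217, 226 and 126 normalized counts in the 3xCR tumors, in the order of their replicate numbers, and 675, 263, 3434 and 5084 in the GPC6 tumors, so all GPC6 libraries lay above all 3xCR libraries, but the library labelled GPC6 replicate 2 lay only just above them (by exact two-sided permutation p = 0.0571, which is the lowest value 3 against 4 libraries allow). The brain tissue given by the labels was checked by its markers, and all 15 pan-neuronal, all 12 astrocyte and all 14 oligodendrocyte markers were detected in every library. The libraries differed in tissue content within groups. 3xCR replicate 4 had a summed normalized count of 51991 over 8 fibroblast markers against 817 to 5457 in the other libraries, and GPC6 replicate 1 had 1076 over 8 markers of hypothalamic neurons against at most 34.6 elsewhere. GPC6 replicate 1 also stood apart for 9 choroid plexus markers (12745 against 70.0 to 3868) and for 13 markers of proliferating cells (1547 against 8251 to 19707). Over 15 pan-neuronal markers the sum was 9263 to 15870 in 3xCR and 11836 to 76774 in GPC6 libraries, with the 2 highest values in GPC6 replicates 1 and 3.

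The first question was whether the net and lectican genes as a group stood at another level in GPC6 than in 3xCR tumors, and no member did beyond the spread between tumors. Mean log2 levels were higher in GPC6 for 6 members (Acan, Bcan, Vcan, Hapln4, Tnr and Ptprz1) and lower for 4 (Ncan, Hapln1, Hapln2 and Tnc), while 48.3% of the 14782 genes tested were higher in GPC6. None of the 10 members reached an unadjusted p under 0.05 by limma, a level that 4.66% of all genes tested reached, and none had groups that did not overlap, as 6.32% of all genes did. After Benjamini-Hochberg adjustment over all genes no member passed, and neither did any other gene (0.0% of genes tested), with a smallest adjusted p of 0.730 among the members. By edgeR on the recovered reads 1 member, Hapln4, reached an unadjusted p under 0.05, as 6.7% of all genes did, and by DESeq2 the same 1 member did, as 9.77% of all genes did, neither after adjustment. The median log2 difference was 0.31 over the members and -0.02 over all genes tested.

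That lean of 6 against 4 depended on single libraries of both groups. Without 3xCR replicate 4, the library rich in fibroblast markers, only 3 members (Acan, Hapln4 and Tnr) kept a higher mean log2 value in GPC6. Of all genes, 48.7% were higher then. Without GPC6 replicate 2, the log2 differences of Bcan, Vcan, Ptprz1 and Ncan were 0.07, -0.01, 0.08 and -0.62. Those of Acan, Hapln4 and Tnr were 1.25, 1.83 and 0.55 in that setting. Hapln4 reached an unadjusted p under 0.05 by limma without GPC6 replicate 2 (9.45% of all genes then did) and without GPC6 replicate 4 (7.83%), and no other member did with any 1 library left out. Leaving out 3xCR replicate 2 gave 2 members without overlap (Bcan and Hapln4, against 20.9% of all genes), and leaving out GPC6 replicate 1 also gave 2 (Acan and Hapln2, against 9.1%). Without 3xCR replicate 3 it was 1 (Acan, against 11.0%), and without GPC6 replicate 2 it was 1 (Hapln4, against 16.1%). 3xCR replicate 4 had the lowest value of all 7 for 8 of the 10 members, the exceptions being Hapln2 and Tnc. The library labelled GPC6 replicate 2 had the highest value for 6 members (Acan, Bcan, Ncan, Vcan, Tnr and Ptprz1), and it was the GPC6 library with the least Gpc6. The part of fibroblast content in the low values of 3xCR replicate 4 was not tested.

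**Figure D1:**
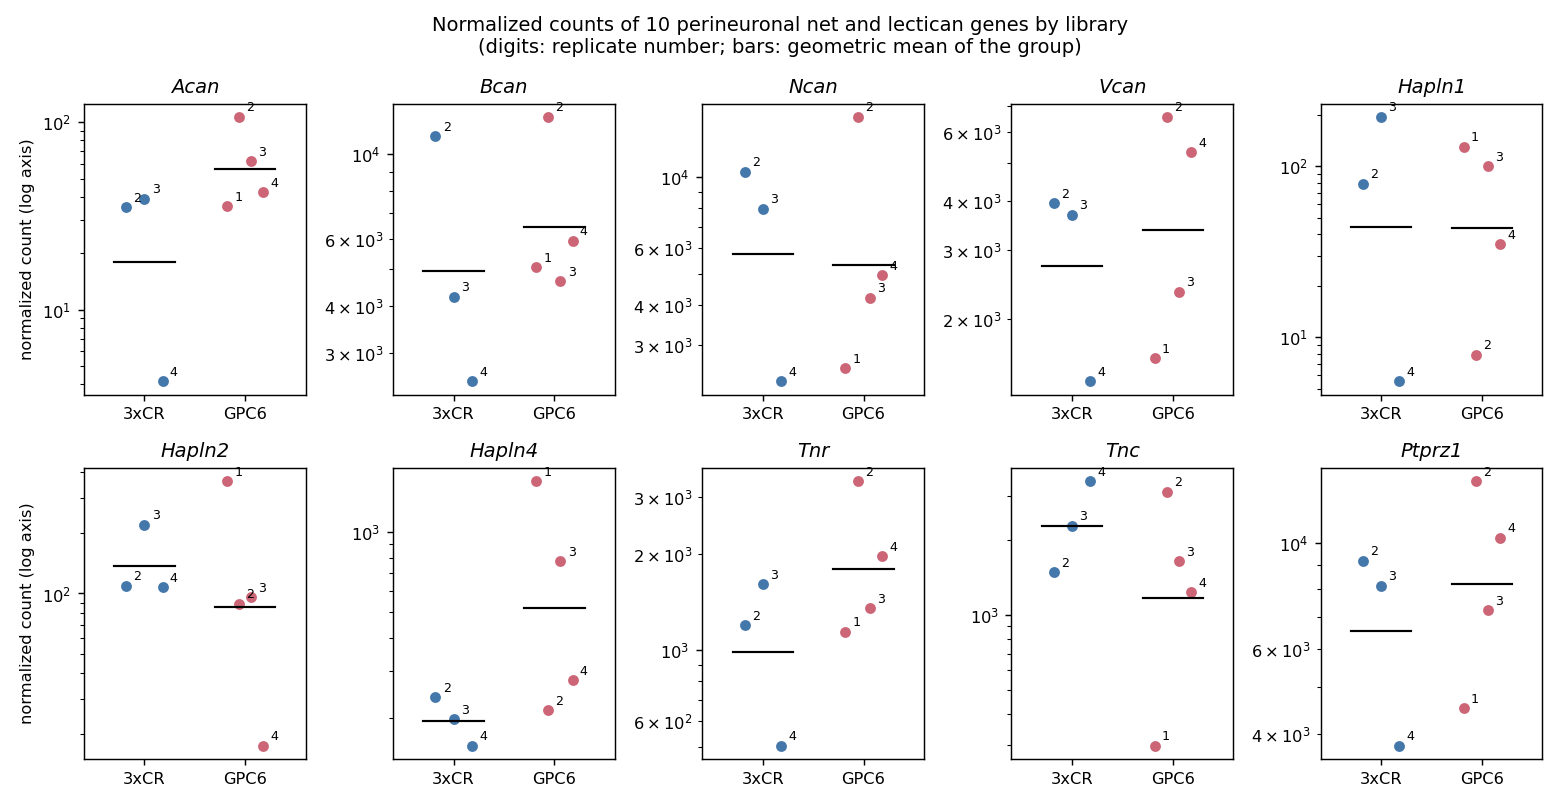
Normalized counts (log axis) of the 10 members, 1 panel per gene, in 3 3xCR and 4 GPC6 libraries, each point a library with its replicate number and each bar the geometric mean of a group. Groups overlapped for all 10 genes, 3xCR replicate 4 was lowest for 8 of them and GPC6 replicate 2 was highest for 6.

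Among the lecticans, Bcan (ENSMUSG00000004892.13, chr3:87987531-88000230, GRCm38), the brain-specific lectican that is abundant in nets and in gliomas, stood at 11144, 4222 and 2530 normalized counts in 3xCR (replicates 2 to 4, an order kept from here on) and 5051, 12535, 4631 and 5920 in GPC6 (replicates 1 to 4). Both groups contained 1 library far above the rest, and the groups overlapped. The means were 5965 ± 4564 (SD, n = 3) in 3xCR and 7034 ± 3707 (SD, n = 4) in GPC6. On the log2(normalized count + 1) scale, which is used for all differences here and understates those of low genes, GPC6 was 0.39 higher (SE 0.55, 95% confidence interval -0.89 to 1.67, limma adjusted p = 0.844). The difference was -0.09 without 3xCR replicate 4 and 0.07 without GPC6 replicate 2.

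Ncan (ENSMUSG00000002341.8, chr8:70093085-70120873), a lectican of the developing brain matrix that persists in adult neuropil and nets, had 10390, 7978 and 2314 normalized counts in the 3xCR libraries and 2544, 15414, 4208 and 4948 in the GPC6 libraries. The high and low libraries were divided between both groups. The means of 6894 ± 4146 (SD, n = 3) and 6779 ± 5844 (SD, n = 4) differed by -0.11 on the log2 scale (SE 0.71, limma adjusted p = 0.972).

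Vcan (ENSMUSG00000021614.16, chr13:89655312-89742509), the widely expressed lectican found around axons and in proliferating tissue, stood at 3950, 3690 and 1391 normalized counts in 3xCR and 1592, 6551, 2351 and 5317 in GPC6. The lowest library of each group was more than 2-fold below the highest of its own group, and the groups overlapped. The log2 difference was 0.31 (SE 0.58, limma adjusted p = 0.882). It was -0.18 without 3xCR replicate 4 and -0.01 without GPC6 replicate 2.

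Acan (ENSMUSG00000030607.7, chr7:79053483-79115099), which encodes aggrecan, the hallmark lectican of nets, was by far the lowest lectican. It had 35.1, 39.1 and 4.14 normalized counts in 3xCR and 35.5, 107, 62.1 and 42.2 in GPC6. These rested on few reads, from 3 in 3xCR replicate 4 to 108 in GPC6 replicate 2. The value of 3xCR replicate 4 had an exact Poisson interval of 0.855 to 12.1 normalized counts, which covers counting error only. Means were 26.1 ± 19.1 (SD, n = 3) and 61.6 ± 32.1 (SD, n = 4), and 3 of the 4 GPC6 libraries lay above the highest 3xCR library, while GPC6 replicate 1 lay between the 3xCR values. The log2 difference was 1.55 (SE 0.80, 95% confidence interval -0.29 to 3.39, limma adjusted p = 0.730), and 0.59 without 3xCR replicate 4.

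Of the 3 link proteins, Hapln4 (ENSMUSG00000007594.10, chr8:70083457-70090862), which encodes Bral2, a neuronal link protein that joins brevican into nets, had its highest values in GPC6 tumors. It stood at 239, 198 and 157 normalized counts in 3xCR and at 1552, 214, 779 and 278 in GPC6. The 3xCR libraries spanned a 1.52-fold range and the GPC6 libraries a 7.24-fold range, with replicates 1 and 3 far above the rest and replicate 2 within the 3xCR values. Means were 198 ± 40.8 (SD, n = 3) and 706 ± 618 (SD, n = 4), and the log2 difference was 1.40 (SE 0.66, 95% confidence interval -0.13 to 2.93, limma adjusted p = 0.730). By exact permutation of the libraries, two-sided, p was 0.114. The log2 difference was 0.88 without GPC6 replicate 1 and 1.83 without the library labelled GPC6 replicate 2. With library weights estimated by limma, a setting under which 1962 genes (13.3%) passed, its adjusted p was 0.0290, against a range of 0.0290 to 1.00 over the 20 alternatives tried, of which this was the only 1 below 0.05.

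Hapln1 (ENSMUSG00000021613.9, chr13:89539796-89611652), the cartilage link protein, which is also needed for compact nets, varied most of all members. Its values were 78.9, 194 and 5.52 normalized counts in 3xCR and 130, 7.90, 100.2 and 34.98 in GPC6, a 35.2-fold range that crossed both groups. The 2 lowest libraries, 3xCR replicate 4 and GPC6 replicate 2, held 4 and 8 reads, with exact Poisson intervals of 1.51 to 14.1 and 3.41 to 15.6 normalized counts. The log2 difference was -0.04, and its 95% confidence interval of -3.10 to 3.02 did not limit it to a narrow range.

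Hapln2 (ENSMUSG00000004894.10, chr3:88021750-88027583), which encodes Bral1, the link protein of myelinated nodes of Ranvier, had 109, 220 and 108 normalized counts in 3xCR and 362, 88.9, 95.8 and 17.5 in GPC6. The GPC6 libraries held both the highest and the lowest value, replicates 1 and 4. Oligodendrocyte markers had their highest list score in GPC6 replicate 1 (0.91) and their lowest in GPC6 replicate 4 (-1.80) as well, where a list score is the mean log2 deviation of the markers from the average of the 7 libraries. The log2 difference of Hapln2 was -0.66 (SE 0.89, limma adjusted p = 0.836), and the part of oligodendrocyte content in it was not tested.

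For the tenascins, Tnr (ENSMUSG00000015829.13, chr1:159523769-159931729), whose product tenascin-R cross-links lecticans in mature nets, had 1199, 1606 and 504 normalized counts in 3xCR and 1144, 3364, 1354 and 1963 in GPC6. Of the GPC6 libraries 2 lay above the highest 3xCR library and GPC6 replicate 1 lay below 2 of the 3 3xCR libraries. Means were 1103 ± 557 (SD, n = 3) and 1956 ± 1000.9 (SD, n = 4), with a log2 difference of 0.85 (SE 0.49, 95% confidence interval -0.29 to 1.99, limma adjusted p = 0.730) that was 0.37 without 3xCR replicate 4.

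Tnc (ENSMUSG00000028364.15, chr4:63959785-64047015), which encodes tenascin-C of developing, injured and tumor tissue, ran the other way. It had 1486, 2291 and 3454 normalized counts in 3xCR and 298, 3140, 1649 and 1237 in GPC6. Here 3xCR replicate 4, the lowest library for most members, was the highest, and GPC6 replicate 1 lay far below every other library. The log2 difference was -0.95 (SE 0.73, 95% confidence interval -2.65 to 0.75, limma adjusted p = 0.741), and it was -0.29 without GPC6 replicate 1.

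Ptprz1 (ENSMUSG00000068748.7, chr6:22875502-23052916), a transmembrane phosphatase that carries chondroitin sulfate, is shed as phosphacan into nets and binds tenascin-R and pleiotrophin, had 9184, 8148 and 3780 normalized counts in 3xCR and 4530, 13443, 7235 and 10250 in GPC6. Its 3.56-fold range over all libraries was the narrowest of the 10 members. Means were 7037 ± 2868 (SD, n = 3) and 8865 ± 3844 (SD, n = 4). The log2 difference of 0.32 (SE 0.46, limma adjusted p = 0.847) was -0.08 without 3xCR replicate 4 and 0.08 without GPC6 replicate 2.

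**Figure D2:**
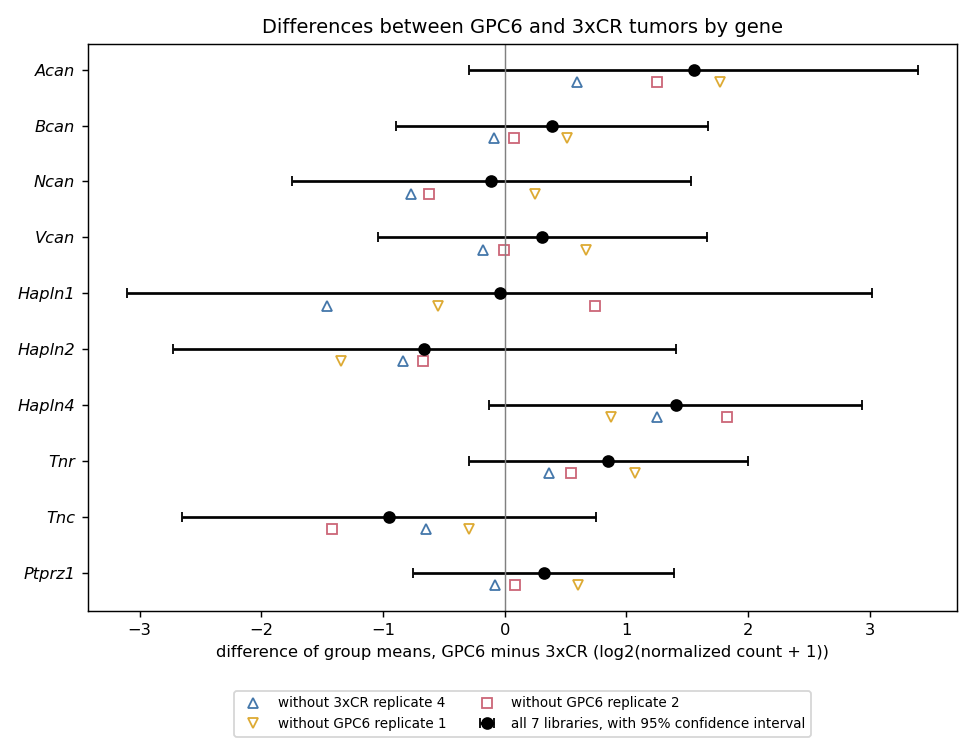
Differences between the group means of the 10 members (GPC6 minus 3xCR, log2(normalized count + 1)), with all 7 libraries (black, bars: 95% confidence interval) and without 1 of 3 libraries that stood apart (open symbols). All 10 intervals cross 0, and leaving out 3xCR replicate 4 turned Bcan, Vcan and Ptprz1 to slightly negative values.

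To compare levels between genes, normalized counts were divided by the exonic length in kilobases. Bcan RNA was the most abundant of the members. Hapln1, Vcan, Tnr and Tnc overlap annotated genes on the opposite strand that the table did not list, and whether reads of those were counted cannot be told. Mean levels over the 7 libraries were 1618 ± 925 normalized counts per kb for Bcan (SD, n = 7), 949 ± 664 for Ncan and 567 ± 234 for Ptprz1, which placed these genes within the upper 1.48%, 2.83% and 5.09% of 18455 genes with a length. Tnc (249), Vcan (245), Hapln4 (124), Tnr (124) and Hapln2 (60.3) followed, and Hapln1 (13.4) and Acan (6.21) were lowest. Neighbours in this order were not all distinct. Bcan lay above Ncan, Ncan above Ptprz1 and Ptprz1 above Tnc in 6 of 7 libraries each, whereas Tnc lay above Vcan in 3 of 7 and Hapln4 above Tnr in 3 of 7.

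As shares of the 4 lecticans per kb, Bcan made up 43.1% to 72.6% of a library, Ncan 20.7% to 46.0%, Vcan 6.12% to 14.6% and Acan 0.0533% to 0.439%. The aggrecan share was 0.125% ± 0.0838 (SD, n = 3) in 3xCR and 0.298% ± 0.0963 (SD, n = 4) in GPC6, a difference that was not tested. All 4 GPC6 values of the Acan share (0.278%, 0.251%, 0.439% and 0.224%) lay above the 3xCR values (0.105%, 0.217% and 0.0533%). The nearest, 0.224% in GPC6 replicate 4 and 0.217% in 3xCR replicate 3, rested on 41 and 42 Acan reads. Values this close cannot be told apart on so few reads. Among the 3 link proteins, Hapln4 took 28.7% to 50.6% of the summed level per kb in 3xCR and 58.4% to 84.2% in GPC6, Hapln2 38.2% to 52.6% in 3xCR and 8.77% to 40.1% in GPC6, and Hapln1 1.08% to 18.7% overall. Each GPC6 library held a larger Hapln4 share than any 3xCR library, without a test, and these shares of 1 total cannot move independently. For the Acan and Hapln4 shares alike, such a lack of overlap was also seen in 6.32% of all single genes tested. Hapln3 is not among the members and not part of these shares.

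Link protein genes lie beside lectican genes in the genome, and their levels were set against each other within libraries, a comparison in which size factors cancel apart from the pseudocount of 1. In GENCODE vM21 on GRCm38, Hapln1 and Vcan are 43659 bases apart on chromosome 13, Hapln2 and Bcan 21519 bases on chromosome 3, and Hapln4 and Ncan 2222 bases on chromosome 8, with no annotated gene between them. The pairs did not run together. Hapln4 was 2.30%, 2.48% and 6.81% of the Ncan level (normalized counts) in 3xCR and 61.0%, 1.39%, 18.5% and 5.61% in GPC6, so that GPC6 replicates 1 and 2 were the extremes on both sides. The mean log2 ratio was 1.51 higher in GPC6 (two-sided exact permutation test, p = 0.400, adjusted p = 0.609 over the 4 ratios tested), 0.63 higher without GPC6 replicate 1 and 2.44 higher without GPC6 replicate 2. Hapln2 to Bcan was -1.05 (exact permutation p = 0.457, adjusted p = 0.609) and Hapln1 to Vcan was -0.35 (exact permutation p = 0.914, adjusted p = 0.914) for GPC6 minus 3xCR. Leaving out 1 library moved the Hapln2 to Bcan value to between -1.85 (without GPC6 replicate 1) and -0.35 (without GPC6 replicate 4), and that of Hapln1 to Vcan to between -1.28 (without 3xCR replicate 4) and 0.75 (without GPC6 replicate 2).

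The ratio of the tenascins, Tnr to Tnc, did separate the groups, though by a narrow gap. As a percentage, Tnr was 80.7%, 70.1% and 14.6% of Tnc in the 3xCR libraries and 383%, 107%, 82.1% and 159% in the GPC6 libraries. All 4 GPC6 values lay above all 3xCR values, but GPC6 replicate 3 (82.1%) and 3xCR replicate 2 (80.7%) were almost the same. The mean log2 ratio was -1.20 ± 1.37 (SD, n = 3) in 3xCR and 0.60 ± 0.97 (SD, n = 4) in GPC6, a difference of 1.80 (by exact two-sided permutation p = 0.0571, the lowest value possible here, and adjusted p = 0.229). Of all genes tested, 6.32% had groups that did not overlap. The difference was 1.01 without 3xCR replicate 4 and 1.36 without GPC6 replicate 1, the 2 libraries at the ends.

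**Figure D3:**
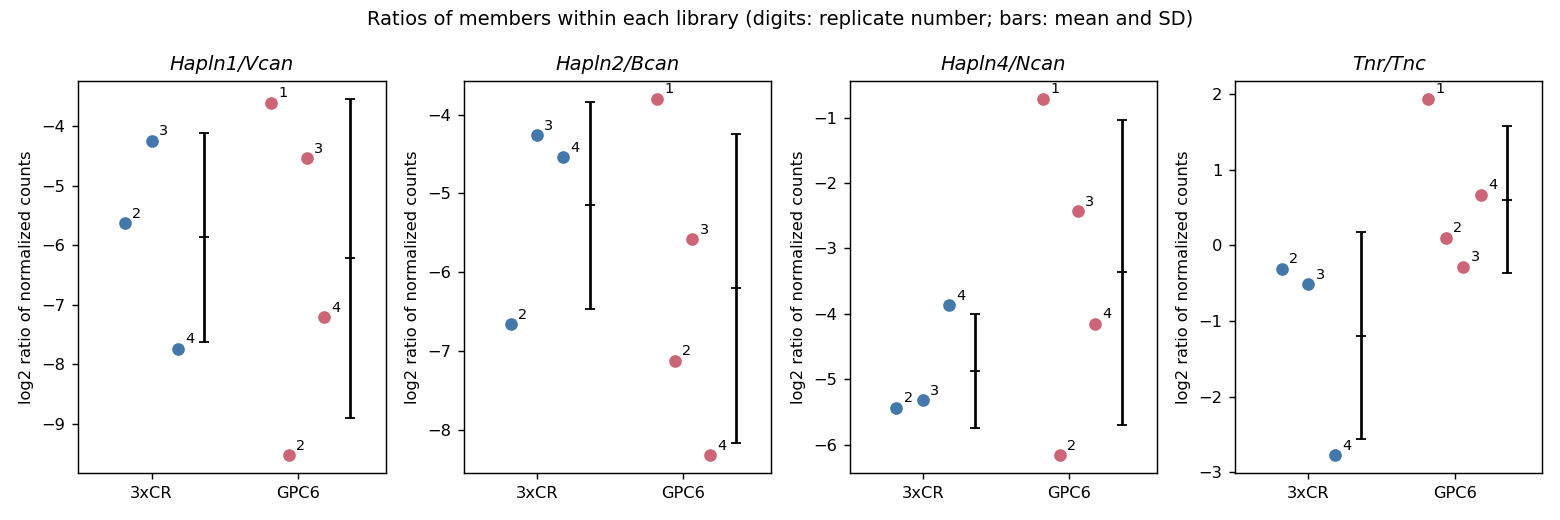
Log2 ratios of normalized counts within each library for 3 pairs of neighbouring link protein and lectican genes and for Tnr to Tnc (points: libraries with replicate number; bars: mean and SD of 3 3xCR and 4 GPC6 libraries). Only in the Tnr to Tnc panel do the groups separate, with 3xCR replicate 2 at -0.31 and GPC6 replicate 3 at -0.28 next to each other.

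Over the 7 libraries some members moved together. A set of 5 was picked after the values were seen, so its high correlations describe that choice. No such values for other sets of genes are given here. Bcan, Ncan, Vcan, Tnr and Ptprz1 had pairwise Pearson correlations of 0.73 to 0.98 with each other on the log2 scale (10 pairs, median 0.85), the closest pair being Vcan and Ptprz1. With the other 5 members their correlations ran from -0.53 to 0.92 (25 pairs, median -0.02). Acan was the nearest to this set (0.66 to 0.92 with its 5 genes) and had its closest value with Tnr. Its values with Tnr (0.92) and Ptprz1 (0.79) were above that of Bcan with Tnr (0.73), so the set has no sharp edge. These are descriptions over 7 libraries that share tissue mix and normalization. GPC6 replicate 2 was highest for the 5 genes and also for the list of 12 markers of oligodendrocyte precursors. The list score was lowest in GPC6 replicate 1 (-1.13) and next lowest in 3xCR replicate 4 (-0.91). The 5 genes were lowest in 3xCR replicate 4, and GPC6 replicate 1 was next lowest for Ncan, Vcan, Tnr and Ptprz1 but not for Bcan. The markers' summed normalized counts were 68252, 44021 and 19897 in 3xCR and 17398, 94605, 32518 and 39111 in GPC6. Of these 12 markers 4 had a higher and 8 a lower mean log2 value in GPC6, none was at 0 in any library, and the part of precursor content in the common pattern was not tested.

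**Figure D4:**
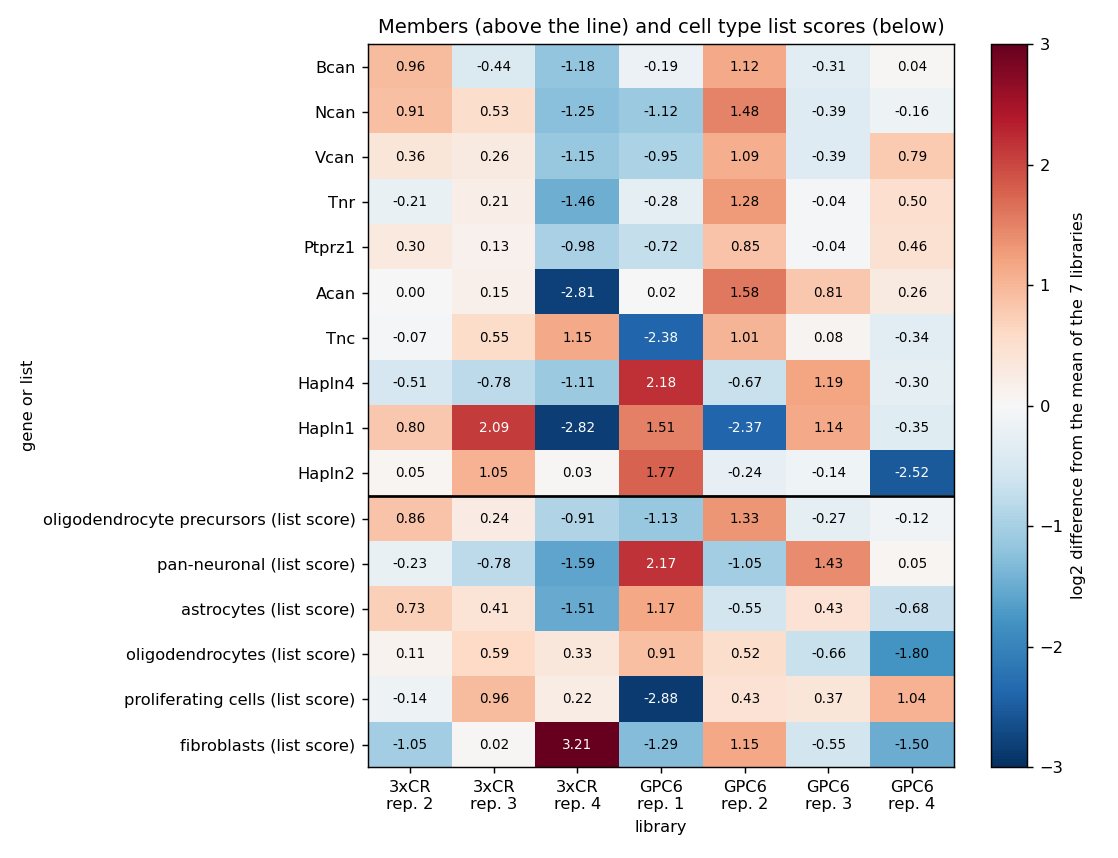
Log2 difference of each library from the mean of the 7 libraries, for the 10 members (above the line) and for list scores of 6 cell types (below, mean over the markers). GPC6 replicate 2 and 3xCR replicate 4 are at opposite ends for Bcan, Ncan, Vcan, Tnr, Ptprz1 and Acan, while Hapln4 and the pan-neuronal score are both highest in GPC6 replicates 1 and 3.

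Hapln4 followed neuronal RNA. Against the pan-neuronal list score it had r = 0.974 and rho = 0.964 over 7 libraries (exact permutation p = 0.000794 and 0.00278, adjusted p = 0.00794 and 0.0278 over the 10 members), and r was 0.949 without GPC6 replicates 1 and 3, the libraries farthest from the median score. Mean log2 values were higher in GPC6 for all 15 pan-neuronal markers, as for 48.3% of all genes tested, and none was at 0. Of the 15, 4 were at an unadjusted p under 0.05 by limma, as 4.66% of all genes were, and none after adjustment. The 13 interneuron markers, Pvalb among them, were likewise all higher, with sums of 554 to 2679 in 3xCR and 1564 to 21968 in GPC6 libraries, and of these Vip was at 0 in at least 1 library. With the pan-neuronal score as a covariate, the log2 difference of Hapln4 between the groups was 0.13 in place of 1.40. The score was itself higher in GPC6 on average, so score and group cannot be cleanly told apart over 7 libraries. The part of neuronal content in the difference was not tested.

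Tnc ran against the same score, with r = -0.868 and rho = -0.893 over 7 libraries (exact permutation p = 0.0115 and 0.0123, adjusted p = 0.0575 and 0.0615), and r was -0.975 without GPC6 replicates 1 and 3. With the score as a covariate the log2 difference of Tnc was 0.31 in place of -0.95, with the same limit as for Hapln4. In the same fit the differences of the other 8 members were larger in size, not smaller. Hapln1 was at -2.21 in place of -0.04, Hapln2 at -1.64 (-0.66), Vcan at 0.95 (0.31) and Tnr at 1.28 (0.85). Ptprz1 was at 0.73 (0.32), Bcan at 0.61 (0.39), Ncan at 0.51 (-0.11) and Acan at 1.58 (1.55). For the other 8 members r lay between -0.38 for Ncan and 0.64 for Hapln1, whose adjusted p was 0.319 by the exact permutation test. Acan, the hallmark net gene, had r = 0.351 (exact permutation p = 0.439, adjusted p = 0.784). Correlations within a group were not computed, since each group has fewer than 6 libraries.

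**Figure D5:**
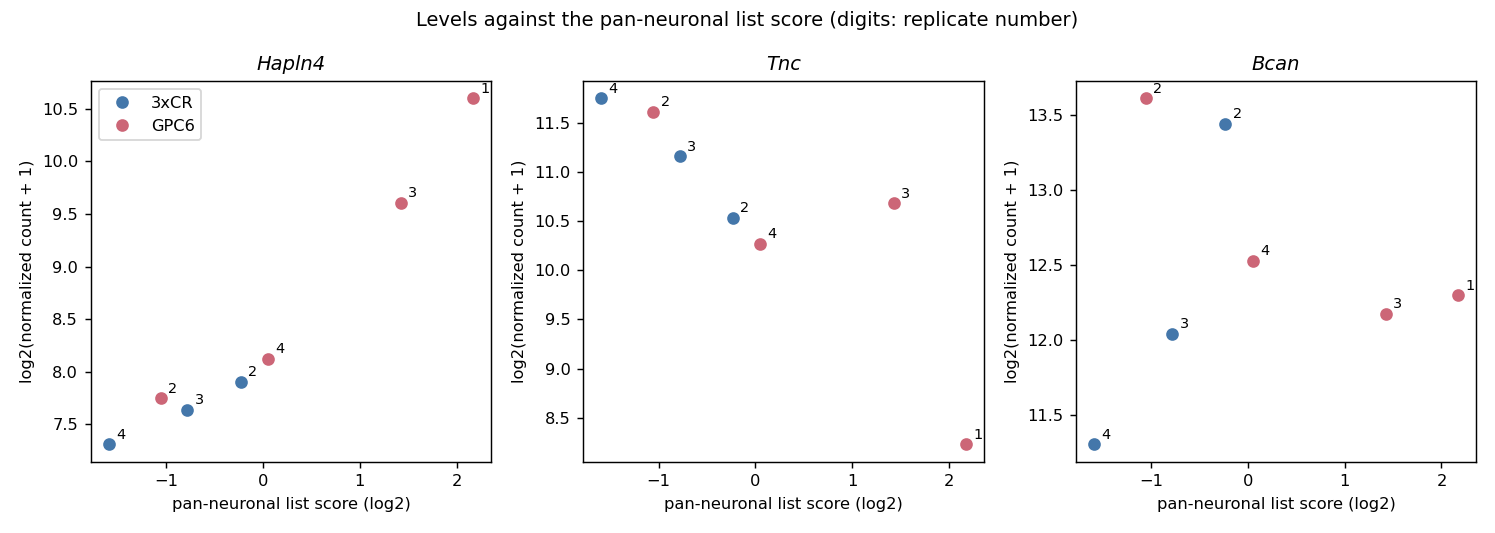
Levels of Hapln4, Tnc and Bcan (log2(normalized count + 1)) against the pan-neuronal list score (mean log2 deviation of 15 markers), 1 point per library with its replicate number. Hapln4 climbs with the score (r = 0.974), Tnc descends (r = -0.868) and Bcan shows no common course (r = -0.004).

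The genes whose log2 levels were most like each member over the 7 libraries, among 14772 other genes, are named as descriptions. For Hapln4 they were Pak1 (r = 0.998), Snap47 (0.995) and the neurofilament gene Nefl (0.995), the last of which is also in the pan-neuronal list. For Hapln2 they were Zcchc17 (0.997), the sphingosine phosphate receptor gene S1pr5 (0.997) and Cyp2j12 (0.983), and for Hapln1 the astrocyte marker Aldh1l1 (0.974), Adra1a (0.958) and Phkg1 (0.956). For the set that moved together, the nearest were Slc26a1, Sbk1 and Ptprg for Bcan (0.989, 0.976 and 0.972), Sbf2, Fchsd2 and Lsm6 for Ncan (0.990, 0.990 and 0.984) and Zfp760, Zeb2 and the netrin receptor gene Unc5c for Vcan (0.981, 0.979 and 0.977). Unc5c recurred with Trim24 and Srd5a1 for Ptprz1 (0.980, 0.984 and 0.982), and Kdm3a, Usp47 and Zbtb33 were nearest to Tnr (0.986, 0.981 and 0.980). Tnc was nearest to Gm8909, the major histocompatibility gene H2-Q5 and Ulbp1 (0.992, 0.991 and 0.986), and Acan to Bhlhb9, Cul4b and D630045J12Rik (0.967 each).

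The enzymes and partners that build, cut and read this matrix were taken from 5 further lists, and none of their genes passed adjustment. The receptors and ligands of net components were the list with the most genes below an unadjusted p of 0.05, 4 of 18 tested and all 4 higher in GPC6, against 4.66% of all genes. These were Nptx2 (log2 difference 3.16, SE 1.34) and Nptx1 (1.68, SE 0.62), pentraxins that gather AMPA receptors at synapses, and the Nogo receptor homologues Rtn4rl1 (2.33, SE 0.94) and Rtn4rl2 (1.78, SE 0.50), the first of which binds chondroitin sulfate chains. Rtn4rl2 had 54.3, 43.7 and 23.5 normalized counts in 3xCR and 144, 86.0, 271 and 96.7 in GPC6, so that its groups did not overlap. Nptx2 had 109, 110 and 5.52 in 3xCR and 283, 62.2, 1785 and 677 in GPC6, with replicate 2 again within the 3xCR values. Without 3xCR replicate 4, Rtn4rl2 was the 1 of the 4 that stayed at an unadjusted p under 0.05 (log2 difference 1.44), while Nptx2 (1.80), Nptx1 (1.30) and Rtn4rl1 (1.76) did not, nor did these 3 without GPC6 replicate 1 (3.31, 1.31 and 1.80) or replicate 3 (2.42, 1.43 and 2.00). Nptx2 also missed that level without GPC6 replicate 4 (log2 difference 2.89), as did Nptx1 (1.66) and Rtn4rl1 (2.17) without 3xCR replicate 3. The median log2 difference of the 18 genes was 0.46, and pan-neuronal markers moved with it as given for Hapln4, in a part that was not tested. Cntn1, an axonal partner of Ptprz1 and the tenascins, had the highest mean of the list and a log2 difference of 0.44 (SE 0.48), and Otx2, a homeoprotein taken up through nets, the lowest (-1.65, SE 1.49), being at 0 in GPC6 replicates 2 and 4. Otx2 is also in the choroid plexus list, whose 8 tested markers all had lower mean log2 values in GPC6. The score of that list was 2.76 in GPC6 replicate 1 and -2.02 and -2.31 in GPC6 replicates 2 and 4.

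The tested hyaluronan genes and most lectican-cleaving proteases had lower mean log2 values in GPC6. Of 14 genes for hyaluronan synthesis, turnover and receptors, 9 were tested and all 9 had a lower mean log2 value (median log2 difference -0.43). Of those below the filter, Has1, Has3, Lyve1 and Stab2 had higher mean normalized counts in GPC6 and Hyal3 a lower one. Hmmr, 1 of the 9 tested, also had a higher mean normalized count in GPC6 (487 against 432). Within GPC6, replicate 1 was far lowest for Has2 (13.9 against 106 to 277), Cd44 (130 against 622 to 1093) and Hmmr (41.7 against 380 to 785). It was also lowest for Hyal2, but highest for Hyal1, Cemip and Tnfaip6. The list score over all 14 genes was -0.26, 0.33 and 0.03 in 3xCR and -0.21, -0.09, 0.33 and -0.13 in GPC6. Of the 9 tested, 1 gene was at an unadjusted p under 0.05. This was Tnfaip6, which modifies hyaluronan, with 145, 156 and 146 normalized counts in 3xCR and 102, 82.0, 94.0 and 27.8 in GPC6, groups that did not overlap (log2 difference -1.11, SE 0.48, limma adjusted p = 0.730). It was not at that level without any 1 of the 3xCR libraries, nor without GPC6 replicate 2 or 3, and its difference was -0.69 without GPC6 replicate 4. Cd44, the main hyaluronan receptor and the highest gene of the list, differed by -1.35 (SE 0.73) with means of 1468 ± 568 (SD, n = 3) and 709 ± 435 (SD, n = 4), and the hyaluronidase gene Cemip by -0.07 (SE 0.53). Of the 11 genes in the protease list, which counts the inhibitor gene Timp3, 9 had lower and 2 higher mean log2 values in GPC6 (median -0.59). Mmp2, a gelatinase, was the 1 at an unadjusted p under 0.05. It had 650, 483 and 796 normalized counts in 3xCR and 184, 273, 311 and 189 in GPC6, without overlap (log2 difference -1.43, SE 0.29, limma adjusted p = 0.730). Timp3 differed by -0.20 (SE 0.30) and Adamts15, an aggrecanase, by 0.85 (SE 0.50).

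Markers of microglia and macrophages had lower mean log2 values in GPC6 too. This held for all 12, while 48.3% of all genes tested were higher, and none was at 0. Of the 12, 5 were at an unadjusted p under 0.05 by limma, as 4.66% of all genes were. Their sums of 34225 to 65511 in 3xCR and 17005 to 33160 in GPC6 did not overlap, by a narrow gap. Of all single genes tested, 6.32% had groups that did not overlap. The list score of these markers was highest in 3xCR replicate 4 (0.85) and lowest in GPC6 replicate 1 (-1.02), as was the protease score (0.93 and -0.85). The hyaluronan score was highest in GPC6 replicate 3 (0.33) and lowest in 3xCR replicate 2 (-0.26). The sum over 8 fibroblast markers was 979 to 51991 in 3xCR and 817 to 5457 in GPC6, all 8 with lower mean log2 values in GPC6. The part of either in the hyaluronan and protease values was not tested.

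The sugar chains themselves gave no lean. For chondroitin sulfate synthesis and sulfation, 20 of 21 genes were tested, 10 higher and 10 lower in GPC6 with a median log2 difference of -0.01 and none at an unadjusted p under 0.05. Chst11, the sulfotransferase of highest level, differed by -0.26 (SE 0.54), the polymerizing Chsy3 by 0.70 (SE 0.62) and the epimerase Dse by -0.99 (SE 0.59). Among 13 genes for further chondroitin sulfate proteoglycans and related matrix proteins, 8 were higher and 5 lower (median 0.23). Spock2, a testican gene, was the 1 at an unadjusted p under 0.05, with 1131, 503 and 254 normalized counts in 3xCR and 5006, 1132, 3141 and 878 in GPC6, the high libraries being those high in pan-neuronal markers (log2 difference 1.92, SE 0.72, limma adjusted p = 0.730). Its difference was 1.89 without 3xCR replicate 3, 1.40 without 3xCR replicate 4, 1.47 without GPC6 replicate 1 and 1.70 without GPC6 replicate 3, none of them at that level. Cspg5, the most abundant, differed by -0.35 (SE 0.55) and Lum, which is also in the fibroblast list, by -1.38 (SE 0.75).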

How the data were processed

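Total RNA of bulk tumor tissue was made into TruSeq stranded mRNA libraries. The authors aligned reads to mm10 with STAR 2.5.0a, counted them with Rsamtools and GenomicFeatures, and normalized with DESeq2 1.20.0 (versions from the submitters' processing notes). Whether counting used strand was not given in the sources used here. The deposited values are a normalized signal per gene, reads divided by a size factor per library. Of 19282 entries, 25 had become dates and were left out. Whole reads were recovered from the steps of the values (100.0% within 0.01 of a whole number). A floor of 3 reads marked detection.

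Groups came from the sample labels. GPC6 was compared with 3xCR by limma 3.58.1 (R 4.3.3), two-sided, fitted to values as log2(normalized count + 1), with a mean-variance trend, over genes with a mean of at least 10, with Benjamini-Hochberg adjustment over all 14782. It was checked on simulated data without the differences in tissue content between the libraries, so that check does not measure power here. The p-values measure the spread between libraries, described as biological replicates. Ratios and correlations were tested by exact permutation (scipy 1.17.1). edgeR 4.0.16 and DESeq2 1.42.0 on recovered reads, pseudocounts, filters, scalings, library weights, a neuronal covariate, a replicate block and left-out libraries were alternatives. edgeR called 0 genes after adjustment and 991 at an unadjusted p under 0.05. The members and lists were chosen with earlier results of these data known. Named were the members, the 3 most similar genes of each, Gpc6, and per list the gene of highest mean, those of largest and smallest difference and those at an unadjusted p under 0.05. The promoters shown were picked after the values were seen. Lengths and positions came from GENCODE vM21, promoters from RefSeq (GRCm38.p6). The genes targeted by the guides are not reported here.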

Additional observations from a re-analysis of the deposited data

Results flagged for a closer look

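Of 49 quantities examined in the 4 GPC6 libraries, 1 had a library far from the others, where chance flags about 1 in 20. It was Tnfaip6, the hyaluronan-modifying gene, with 27.8 normalized counts in GPC6 replicate 4 against 82.0 to 102 in GPC6 replicates 1 to 3. The 3xCR libraries, at 145 to 156, lay above all of them.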

How the results depend on the processing

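Over 20 alternatives, 179 of 199 fits of a member kept their direction and side of the threshold, 19 changed sign and 1 passed the threshold (Hapln4 with library weights). Changing the filter or dropping the trend cannot move a log2 difference, and the replicate block repeats the differences without GPC6 replicate 1. The 199 fits are therefore not separate checks, and the count overstates stability. Acan, Hapln4 and Tnr were higher in GPC6 throughout, but the smallest differences were slight. The log2 differences ran from 0.59 to 2.07 for Acan, 0.13 to 1.83 for Hapln4 and 0.01 to 1.28 for Tnr. Genes at an adjusted p under 0.05 were 0 by limma, 4 by DESeq2 and 1962 with library weights. Genes at an unadjusted p under 0.05 were 689 by limma, 1853 by DESeq2, 5105 with library weights and 306 with the pan-neuronal covariate. They were 892 without GPC6 replicates 1 and 2, and 119 (without 3xCR replicate 4) to 1401 (without GPC6 replicate 2) when 1 library was left out. Members at that level were 0 by limma, 1 by DESeq2 and by edgeR and 1 without GPC6 replicates 1 and 2 (Hapln4 each time), 2 with library weights (Hapln2 and Hapln4) and 0 to 1 (Hapln4, without GPC6 replicate 2 or 4) with 1 library left out. Genes whose groups did not overlap were 3471 without GPC6 replicates 1 and 2 and 1165 (without 3xCR replicate 4) to 3098 (without 3xCR replicate 2) with 1 library left out, and members 3 (Acan, Hapln2 and Hapln4) and 0 to 2. Members with a higher mean log2 value in GPC6 were 3 (without 3xCR replicate 4) to 8. With 1 library left out, log2 differences ran from -0.088 to 0.98 for Bcan, -0.77 to 0.32 for Ncan, -0.18 to 0.67 for Vcan, -1.46 to 0.99 for Hapln1, -1.35 to 0.086 for Hapln2 and -0.078 to 0.61 for Ptprz1, and the log2 ratio of Hapln1 to Vcan from -1.29 to 0.75. The sign also turned for Ncan (0.51) and Tnc (0.31) with the pan-neuronal covariate, for Vcan (-0.41) and Ptprz1 (-0.054) with library weights and for Hapln1 (0.37) without GPC6 replicates 1 and 2, and the cause was not tested. A replicate block put 2 members (Acan and Hapln2) at an unadjusted p under 0.05, as 678 of all genes tested did. It gave Ncan a log2 difference of 0.25. Replicate number 1 occurs only in GPC6, so the members' log2 differences under the block equal those without GPC6 replicate 1. Same-numbered libraries deviated together with r = -0.194, 0.118 and 0.296, so the numbers do not pair them. Depth limits Acan and Hapln1, which had 3 to 8 reads in their lowest libraries.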
